A study of Mus musculus with 23 samples.

Results

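Lipid-associated macrophages are described here through 7 marker genes, Gpnmb, Trem2, Spp1, Cd9, Lgals3, Mmp12 and Itgax, out of 26522 gene identifiers in the expression tables of the study. The genes were matched by symbol in both tables, 24940 genes for females and 24434 for males, and all 7 passed the filter on low counts in each sex. They were picked because Gpnmb, Trem2 and Mmp12 were higher in livers without Cpt1a, so the difference between genotypes is described below with fold changes and standard errors and without a test.

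Bulk RNA was sequenced from 23 samples of whole mouse liver, called livers below. Every sample had the B100 background, the diet labelled WD for 16 weeks and the fed state at necropsy. The groups were 5 samples of B100-Control males, 6 of B100-LKO males, 6 of B100-Control females and 6 of B100-LKO females. LKO denotes the hepatic ablation of Cpt1a, the enzyme that admits long-chain fatty acids to mitochondria. The labels name no Cre line, promoter or age. Replicates carry the numbers of the labels, and the control males are numbers 1, 2, 3, 4 and 6. The labels do not say that each number is a separate animal, so p-values measure the spread between these samples. Sex coincides with the deposited table, and the effects of sex and of table cannot be told apart.

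Lipid-associated macrophages are recruited or resident macrophages that collect around lipid-laden cells in obese fat, fatty liver and atherosclerotic plaque. The lipid receptor TREM2 signals through the adaptor TYROBP in these cells, which take up lipid, expand their lysosomes and secrete osteopontin. GPNMB is a membrane glycoprotein of lysosomes and the cell surface, CD9 is a tetraspanin, LGALS3 is a galactoside-binding lectin, MMP12 is the macrophage elastase, ITGAX is the integrin chain CD11c, and SPP1 is osteopontin. Several of these genes are not restricted to macrophages. Spp1 is also a gene of bile duct cells, and Cd9 and Lgals3 are made by many cell types. In whole liver, fewer cells of a type and less RNA per cell cannot be told apart.

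The upstream sequences of the genes are shown because several of them rose and fell together between livers. RefSeq start sites on GRCm38.p6 gave 9 windows for the 7 genes, each of the 250 bases before the start. The windows were searched on both strands for the AP-1 motif TGAGTCA, for the E-boxes CACGTG and CATGTG, sites of the MiT family of lysosomal regulators, and for the macrophage factor PU.1 as GAGGAAGT. No match overlapped another. Capitals mark every match, and the lines give the sequences 5′ to 3′ on the strand of the gene.
Gpnmb, chr6:49036268-49036517, plus strand: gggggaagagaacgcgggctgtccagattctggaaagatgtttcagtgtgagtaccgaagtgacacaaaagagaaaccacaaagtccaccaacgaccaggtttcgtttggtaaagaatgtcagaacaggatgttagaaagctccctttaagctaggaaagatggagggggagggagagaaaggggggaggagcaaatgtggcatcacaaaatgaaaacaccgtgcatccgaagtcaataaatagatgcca
Trem2, chr17:48346151-48346400, plus strand: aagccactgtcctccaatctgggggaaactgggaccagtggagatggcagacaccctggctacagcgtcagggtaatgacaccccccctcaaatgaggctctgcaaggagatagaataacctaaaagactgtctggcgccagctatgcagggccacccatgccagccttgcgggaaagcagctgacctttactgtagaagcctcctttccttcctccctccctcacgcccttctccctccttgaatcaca
Mmp12, second start, chr9:7347124-7347373, plus strand: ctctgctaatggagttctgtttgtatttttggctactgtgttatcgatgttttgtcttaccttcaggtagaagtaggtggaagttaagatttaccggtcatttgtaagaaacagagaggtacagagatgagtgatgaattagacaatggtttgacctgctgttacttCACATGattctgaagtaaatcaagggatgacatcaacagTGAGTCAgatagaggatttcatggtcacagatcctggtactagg
Itgax, chr7:128129300-128129549, plus strand: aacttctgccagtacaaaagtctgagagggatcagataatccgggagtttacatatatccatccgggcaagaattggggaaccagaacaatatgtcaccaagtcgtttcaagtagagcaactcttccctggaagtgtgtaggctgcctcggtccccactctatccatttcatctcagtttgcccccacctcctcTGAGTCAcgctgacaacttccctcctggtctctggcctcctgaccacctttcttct

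In the Mmp12 window of the second start, the AP-1 match began 44 bases and the CATGTG match 83 bases before the start. The AP-1 match of Itgax began 56 bases before its start. AP-1 letters occurred in 4.46% of 32851 mouse windows of this length, CATGTG in 12.3%, CACGTG in 6.02% and the PU.1 letters in 2.44%. The PU.1 letters were in 1 window each of Spp1 and Mmp12, 113 and 88 bases before the start, and CATGTG was also in the Cd9 window, 38 bases before the start. For Mmp12 that was the window of its first start, chr9:7344147-7344396, which is not printed and held no AP-1 or E-box match. The AP-1 and CATGTG matches of Mmp12 are thus of its second start alone. The Gpnmb, Trem2 and Lgals3 windows held none of the 4 motifs. A match is a description of the letters, and 5 of the 9 windows held at least 1. The share of all mouse windows with at least 1 of the 4 motifs was not computed, so this count is not read as an excess.

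Total counts per liver ran from 14224665 to 19626662, and control male 4 had the lowest total and the lowest scaling factor. Levels below are CPM, the usual depth-scaled read counts, after TMM scaling unless stated otherwise. Cpt1a checked the labels, with 285 to 431 CPM in control and 61.8 to 86.3 CPM in LKO females, and 303 to 431 CPM in control and 42.2 to 96.8 CPM in LKO males. Neither sex showed overlap between genotypes. Markers of liver tissue were abundant, with 57582 to 99752 CPM summed over 8 hepatocyte genes, and 12 general macrophage genes summed to 571 to 1310 CPM across the 23 livers.

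In females, 4 of the 7 genes were higher in every LKO liver than in any control. Gpnmb was 9.34-fold, Mmp12 5.66-fold, Trem2 2.50-fold and Spp1 1.58-fold higher in LKO livers. The means of Cd9 differed by less than the spread between livers. Over all 13684 tested genes, the fit with edgeR called 1.42% in either direction and 0.928% as higher at an adjusted p under 0.05. LKO livers lay above all controls for 1.05% of the tested genes, and the groups did not overlap for 1.59%. Because the genes were picked on this contrast, calls of the 7 genes are not given. Nothing is read from the 4 genes without overlap. The median log2 fold change of the 7 genes was 1.17, against 0.0051 over all tested genes.

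Gpnmb, the lysosomal and surface glycoprotein, is encoded on the plus strand at chr6:49013480-49047863 in the deposited table (mm39 per the submitters' processing notes). It was the scarcest of the 7 in control females, with 8 to 34 counts per liver. Its level ran from 0.531 CPM through a median of 1.0 to 2.30 CPM in control females and from 5.16 through 8.20 to 22 CPM in LKO females. The means were 1.18 ± 0.637 (SD, n = 6) and 11 ± 6.80 CPM (SD, n = 6). The groups did not overlap, and LKO females 3 and 4 were the highest with 16.6 and 22 CPM. The log2 fold change was 3.22 (SE 0.42).

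Mmp12, the elastase, lies at chr9:7344381-7369499 on the plus strand. Control females ran from 0.531 through a median of 1.76 to 2.81 CPM, which were 8 to 49 counts, and LKO females from 6.11 through 9.07 to 13.9 CPM. Means were 1.72 ± 0.732 and 9.84 ± 3.19 CPM (SD, n = 6 each). The log2 fold change was 2.50 (SE 0.29). LKO females 2 and 4 were the highest, and the lowest control, female 5, was also the lowest for Gpnmb.

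Trem2, the lipid receptor at chr17:48653429-48661175 on the plus strand, moved within a narrower span. Control females ran from 2.43 through 3.13 to 4.2 CPM and LKO females from 5.52 through 7.83 to 10.3 CPM. The log2 fold change was 1.32 (SE 0.18), with means of 3.18 ± 0.744 and 7.96 ± 1.79 CPM (SD, n = 6 each). In LKO females its highest value was 1.86 times its lowest, against 4.26 times for Gpnmb, 3.35 for Itgax and 2.27 for Mmp12. The same ratio was smaller for Spp1 (1.76), Cd9 (1.70) and Lgals3 (1.64).

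Spp1, the secreted glycoprotein at chr5:104582984-104588916 on the plus strand, had the smallest fold among the genes without overlap between genotypes in females. Control females were close together, from 34.5 through 37.9 to 41.2 CPM, and LKO females ran from 43.5 through 56.9 to 76.6 CPM. Its log2 fold change was 0.66 (SE 0.12), from means of 37.6 ± 2.42 to 59.5 ± 12.5 CPM (SD, n = 6 each). The spread between LKO females was wider than between controls.

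The other 3 genes overlapped between genotypes in females. Itgax, the dendritic and macrophage integrin at chr7:127728719-127749829 on the plus strand, had a log2 fold change of 1.17 (SE 0.28), larger than that of Spp1. It ran from 1.69 through 2.55 to 4.49 CPM in controls and from 3.63 through 5.32 to 12.1 CPM in LKO females, and 5 of 6 LKO livers lay above all controls. LKO female 6 stood apart with 12.1 CPM, and the next liver had 5.99 CPM. Lgals3, the lectin at chr14:47605208-47623617 on the plus strand, had a log2 fold change of 0.54 (SE 0.16) with 4 of 6 LKO livers above all controls, and means of 20.2 ± 5.14 and 29.5 ± 4.92 CPM (SD, n = 6 each). Cd9, the tetraspanin at chr6:125437229-125471754 on the minus strand, had means of 24.8 ± 6.91 and 24.3 ± 4.88 CPM (SD, n = 6 each) and a log2 fold change of -0.03 (SE 0.17). No LKO female exceeded all controls for Cd9, and its sign turned with scaling to library size alone, where the value was 0.01.

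**Figure D1:**
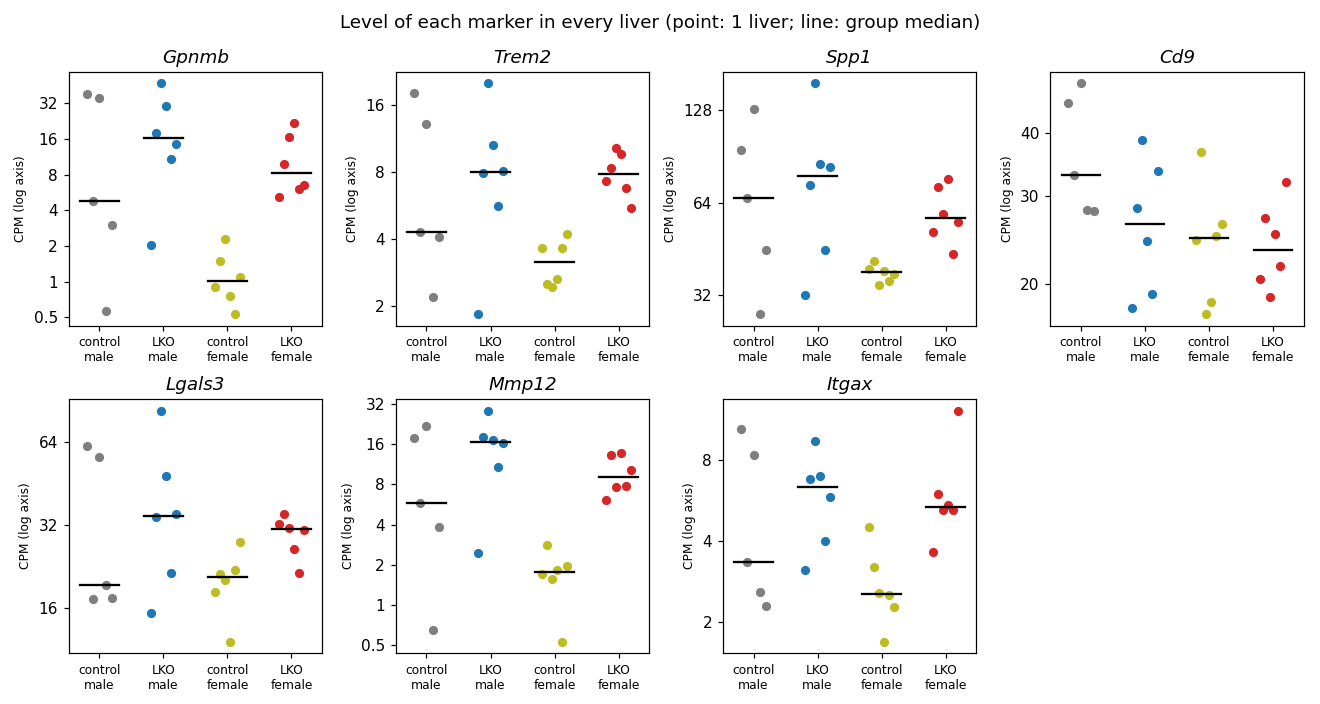
Level of each of the 7 marker genes in CPM (vertical log axis) in every liver of the 4 groups, with 1 point per liver and a line at the group median. In females the LKO livers lay above all controls for Gpnmb, Trem2, Spp1 and Mmp12, and in males the 2 genotypes overlapped for all 7 genes, with control males spread most for Gpnmb, from 0.566 to 38.6 CPM.

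In males the 7 genes differed more between livers of 1 genotype than between genotypes. Gpnmb ran over 68.1-fold among 5 control males, with 38.6, 4.75, 35.5, 0.566 and 2.98 CPM in replicates 1, 2, 3, 4 and 6. LKO males ran from 2.04 through a median of 16.2 to 47.0 CPM. Control males 1 and 3 thus exceeded every LKO male except number 3, while control male 4 was below all LKO males. Means were 16.5 ± 18.9 (SD, n = 5) and 20.4 ± 16.0 CPM (SD, n = 6), and the log2 fold change was 0.30 (SE 0.82).

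Trem2 had 18.1, 4.28, 13.2, 2.18 and 4.09 CPM in the same control males and ran from 1.83 through 8.02 to 20.03 CPM in LKO males. Its log2 fold change was 0.10 (SE 0.56). The same livers were high as for Gpnmb, control males 1 and 3 and LKO male 3, and LKO male 1 was the lowest of its group for both genes. Mmp12 had 17.9, 5.82, 21.9, 0.647 and 3.86 CPM in controls and 2.44 to 28.6 CPM in LKO males, a log2 fold change of 0.63 (SE 0.64), the largest of the 7 in males.

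Spp1 had 94.7, 66.3, 129.9, 27.6 and 44.8 CPM in control males and ran from 31.8 through 78.4 to 156.9 CPM in LKO males, a log2 fold change of 0.13 (SE 0.41). Lgals3 had a log2 fold change of 0.20 (SE 0.45), with 17.2 to 61.7 CPM in controls and 15.3 to 83.2 CPM in LKO males. Itgax had 0.16 (SE 0.40), with 2.28 to 10.4 and 3.12 to 9.37 CPM. Each of these 3 genes again had its lowest LKO value in male 1 and its highest in male 3.

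Cd9 was the only gene of the 7 whose log2 fold change was below 0 in males, at -0.45 (SE 0.22). Control males had 45.9, 33.0, 50.3, 28.2 and 28.0 CPM and LKO males ran from 18 through 26.4 to 38.7 CPM, so the groups overlapped. Over all 13805 tested genes in males, the fit with edgeR called 0.00724%. The groups did not overlap for 1.77% of genes, and all LKO males lay above all controls for 0.674%. At an unadjusted p under 0.05 the fit held 1719 genes of the male table, and DESeq2 called 114 genes after adjustment. The median of the 7 log2 fold changes was 0.16, against 0.01 over all tested genes.

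The male direction rested on single livers for 5 of the 7 genes, all but Mmp12 and Cd9, which kept theirs with any 1 liver left out. Mmp12 then ran from 0.34 to 1.14 and Cd9 from -0.57 to -0.31. Without LKO male 3 the log2 fold change of Gpnmb was -0.12 and that of Trem2 -0.29, and the median over the 7 genes was -0.14. Without control male 1 that median was 0.54. The difference between sexes, female minus male log2 fold change over all 23 livers, was 2.91 (SE 1.06) for Gpnmb, 1.87 (SE 0.77) for Mmp12 and 1.22 (SE 0.62) for Trem2. It was 1.01 (SE 0.52) for Itgax, 0.53 (SE 0.44) for Spp1, 0.43 (SE 0.29) for Cd9 and 0.34 (SE 0.50) for Lgals3. These differences build on the contrast the genes were picked on and were not tested. Over all 14503 genes the interaction called 0 genes with edgeR, 1874 genes were under an unadjusted p of 0.05, and DESeq2 called 97. Leaving out control male 4 raised the edgeR count to 17.

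**Figure D2:**
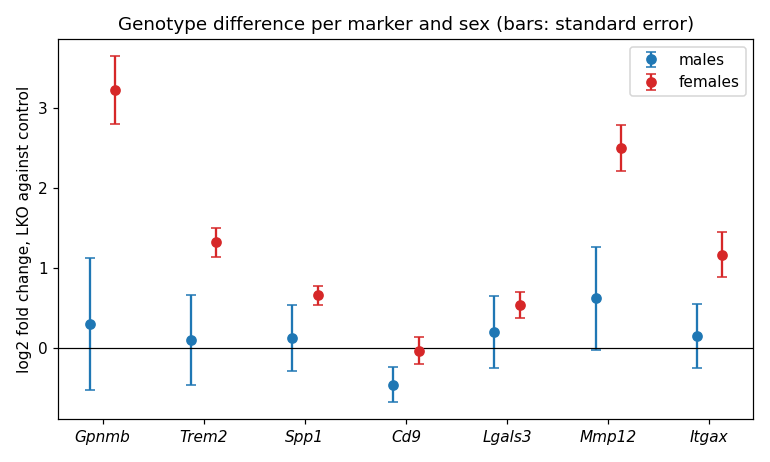
Log2 fold change of LKO against control (vertical axis) for the 7 genes, fitted with edgeR in males and females separately, with bars of 1 standard error. Gpnmb and Mmp12 had the largest values in females, 3.22 and 2.50, and the male bars of 6 genes reached 0 while that of Cd9 lay below it.

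The levels of the genes were set against each other per length, as deposited FPKM. Spp1 was the highest in every group, from 22.9 ± 1.42 FPKM in control females (SD, n = 6) to 47.0 ± 25.6 FPKM in LKO males (SD, n = 6). Lgals3 and Cd9 came next, and their ranges overlapped each other in all 4 groups. The other 4 genes lay well below, and their neighbours in the order overlapped in every group. In control females Gpnmb was last at 0.181 ± 0.0980 FPKM (SD, n = 6), behind Mmp12, Itgax and Trem2. In LKO females it was the fourth, at 1.69 ± 1.04 FPKM (SD, n = 6), with Trem2 at 1.61 and Mmp12 at 1.36 FPKM.

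Between control livers, all 7 genes had lower levels in females than in males. The control females are the same livers as in the contrast above. Gpnmb was 1.18 CPM on average in control females and 16.5 CPM in control males, a log2 difference of -3.76 (SE 0.85), and Mmp12 and Trem2 differed by -2.49 (SE 0.63) and -1.36 (SE 0.45), given without a test because these 3 genes were picked on the female controls. Only 1 of 6 control females lay below all control males for Gpnmb, since control male 4 had 0.566 CPM. Of the 4 other genes, Spp1 was lower in females at -0.91 on the log2 scale (SE 0.29, edgeR adjusted p = 0.0436), where 18% of 13699 genes were called and 9.2% as lower. That call was lost in 9 of 11 fits that left out 1 liver, and in 7 of these the log2 difference was -0.95 to -0.89. It was -0.61 without control male 3 (edgeR adjusted p = 0.117) and -0.80 without control male 1 (edgeR adjusted p = 0.102). The call was also lost with limma on FPKM (adjusted p = 0.124). Cd9 at -0.55 (SE 0.20, edgeR adjusted p = 0.0767), Itgax at -0.91 (SE 0.40, edgeR adjusted p = 0.126) and Lgals3 at -0.73 (SE 0.35, edgeR adjusted p = 0.163) did not pass. The same control females also entered the female genotype contrast of these 4 genes, and all 7 genes were chosen with earlier results known. The tests of the 4 genes are therefore not independent of that contrast, and nothing is read from the Spp1 call.

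Marker lists of other kinds went either way in the same contrast of control livers. Of 8 Kupffer cell markers, the resident macrophages of the liver, 8 had higher levels in females and 4 were called by edgeR, where 8.8% of genes were called as higher, namely Timd4 (log2 difference 1.45, SE 0.24, adjusted p = 0.00173), Clec4f, Vsig4 and Cd163. Of 12 general macrophage markers 11 had higher levels in females and 1 was called, the receptor gene Csf1r (0.60, SE 0.15, edgeR adjusted p = 0.0136). Of 8 stellate cell and fibroblast markers 6 had lower levels in females and 2 were called as lower by edgeR, Col1a1 (-1.48, adjusted p = 0.0413) and Timp1 (-2.46, adjusted p = 0.0230). Their sums were 95.9 to 152 CPM in control females and 94.0 to 310 CPM in control males. The monocyte receptor gene Ccr2 (-1.35, edgeR adjusted p = 0.00632) and the lysosomal gene Cd63 (-1.87, edgeR adjusted p = 0.0204) were also called as lower. The part of these cell types in the lower levels of the 7 genes was not tested.

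Within groups, the 7 genes rose and fell together across male livers. After the group mean was removed from log2(CPM + 1), Pearson's r over 11 males had a median of 0.93 across the 21 pairs, from 0.84 to 0.98. In the exact permutation of livers within groups, 21 of 21 pairs passed, with p-values adjusted over the 21 pairs of 0.000462 to 0.00267. The share of passing pairs among other genes was not computed, so the count is not read as particular to these 7 genes. Spearman's rho had a median of 0.88, and 21 of 21 pairs passed on it too. Gpnmb and Trem2 had r = 0.98 (exact permutation p = 2.31e-05) and rho = 0.97 (exact permutation p = 5.79e-05). The lowest r of the 21, 0.84, was that of Gpnmb and Cd9.

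The male values were similar in LKO livers alone and without the most extreme livers. Over the 6 LKO males alone the median r was 0.94, and without the 2 livers farthest from the median of the first gene it was 0.91. Trem2 had the highest median r with the other 6 genes, 0.94, and Cd9 the lowest, 0.88. The 7 genes share a library in each liver, and their summed level ran from 81.2 to 315 CPM in control males and from 74.6 to 384 CPM in LKO males.

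In females the same measure was weaker and did not pass. Over 12 females the median r was 0.30, from -0.28 for Trem2 and Itgax to 0.69 for Spp1 and Mmp12, and 15 of 21 pairs were positive. With exact permutation, 0 of 21 pairs passed, and the lowest adjusted p was 0.216, of Spp1 and Mmp12 (unadjusted p = 0.0103, rho = 0.70). Gpnmb and Trem2 had r = 0.40 (exact permutation p = 0.253) and rho = 0.36 (exact permutation p = 0.296). Their r was -0.56 in the 6 control and 0.84 in the 6 LKO females. Control females carried only 8 to 34 counts of Gpnmb per liver. Whether r differed between the sexes was not tested.

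**Figure D3:**
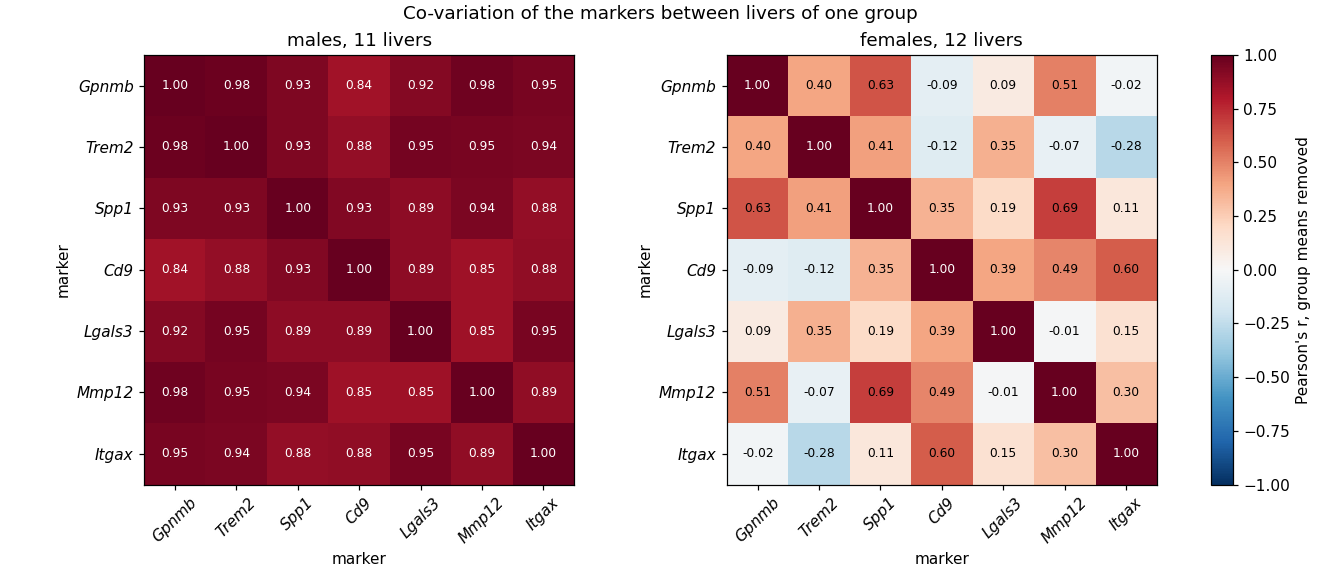
Pearson's r of log2(CPM + 1) between each pair of the 7 genes after removal of group means, for 11 males on the left and 12 females on the right, with colour from -1 to 1. All 21 male pairs lay between 0.84 and 0.98, and the female pairs between -0.28 and 0.69.

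The wider programme around these genes was read from 42 genes, namely TREM2 partners and scavenger receptors, lipid-handling genes, lysosomal genes and their regulators. In females edgeR called 3 of 41 tested genes, all higher, where 1.42% of all genes were called in either direction and 0.928% as higher. The lists were chosen with earlier results of these data known, so this count is not independent support. Cd63, a tetraspanin of late endosomes and lysosomes, rose by 1.45 on the log2 scale (SE 0.22, edgeR adjusted p = 0.00651), from 9.97 ± 2.38 to 27.3 ± 9.53 CPM (SD, n = 6 each). Lpl, which hydrolyses triglyceride of lipoproteins, rose by 1.03 (SE 0.18, edgeR adjusted p = 0.0134), from 32.8 ± 11.2 to 66.8 ± 5.60 CPM (SD, n = 6 each), with 59.9 CPM as the lowest LKO and 46.1 CPM as the highest control value. Hexa, a lysosomal hexosaminidase subunit, rose by 0.40 (SE 0.08, edgeR adjusted p = 0.0176), and its adjusted p was 0.0533 without control female 5. Of the 41 genes 33 had a log2 fold change above 0, with a median of 0.15.

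By role, 0 of 9 tested partners and receptors were called (3 at an unadjusted p under 0.05), and Tyrobp, the adaptor of TREM2, had 0.33 (SE 0.13, edgeR adjusted p = 0.244). The scavenger receptor Cd36 had the lowest p of that list, at 0.59 (SE 0.18, edgeR adjusted p = 0.111). Of 10 lipid-handling genes 1 was called and of 14 lysosomal genes 2, and Cd68, a lysosomal glycoprotein of macrophages, had 0.39 (SE 0.12, edgeR adjusted p = 0.116). Of 8 regulators 0 were called (1 at an unadjusted p under 0.05, Tfeb, at 0.36, SE 0.14, edgeR adjusted p = 0.225). DESeq2 called 6 of the 41 genes.

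In males 0 of 41 programme genes were called by edgeR, with 4 at an unadjusted p under 0.05. DESeq2 called 1, the fatty acid binding protein gene Fabp5, which had -1.12 in edgeR (SE 0.28, adjusted p = 0.245). Cd63 had -0.18 (SE 0.59) in males, where its level ran from 8.25 to 86.7 CPM in controls, and Lpl had 0.51 (SE 0.26, edgeR adjusted p = 0.453). The interaction of genotype and sex called 0 of the 41 with edgeR (6 at an unadjusted p under 0.05) and 0 with DESeq2.

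General macrophage markers were read beside the higher levels of the 4 genes in LKO females. Of 12 such markers 0 were called (1 at an unadjusted p under 0.05), none was at 0, and their summed level was 751 to 1193 CPM in control and 896 to 1310 CPM in LKO females. Kupffer cell markers had 0 of 8 called (0 at an unadjusted p under 0.05), with sums of 440 to 887 and 500 to 849 CPM. Among 4 tested monocyte markers Ccr2, the chemokine receptor of recruited monocytes, rose by 1.35 (SE 0.27, edgeR adjusted p = 0.0218) from 0.984 to 2.52 CPM, and the call was lost without control female 5 (adjusted p = 0.0613), LKO female 2 (0.0627), 3 (0.0565) or 4 (0.0587). The other 4 monocyte markers, Chil3, S100a4, F13a1 and Vcan, were below the filter.

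Markers of other liver cell types were read in the same fit. Of 7 tested stellate cell and fibroblast markers, 7 had a log2 fold change above 0 in females, with a median of 0.49, and 0 were called (4 at an unadjusted p under 0.05). They summed to 95.9 to 152 CPM in control and 117 to 244 CPM in LKO females, and Col3a1, a fibrillar collagen, had 0.74 (SE 0.23, edgeR adjusted p = 0.125). Of 7 cholangiocyte markers 0 were called (1 at an unadjusted p under 0.05), with sums of 25 to 28.4 and 25.2 to 32.9 CPM. Neither list had a marker at 0. Of 8 hepatocyte markers 7 had a log2 fold change below 0 and 0 were called (2 at an unadjusted p under 0.05), with sums of 82162 to 99752 CPM in control and 58022 to 92314 CPM in LKO females. In females 0 of 5 dendritic cell markers (1 at an unadjusted p under 0.05), 0 of 3 neutrophil markers, 0 of 7 lymphocyte markers (1 at an unadjusted p under 0.05) and 0 of 7 endothelial markers (3 at an unadjusted p under 0.05) were called by edgeR. Values above 0 were not particular to the stellate list. They were found for 7 of 7 lymphocyte (median 0.59), 7 of 7 cholangiocyte (0.11), 5 of 5 dendritic (0.25) and 3 of 3 neutrophil markers (0.23). General macrophage markers had 10 of 12 above 0, monocyte markers 2 of 4, Kupffer cell markers 2 of 8 and endothelial markers 2 of 7. Over all tested genes 51.1% were above 0. The part of these cell types in the levels of the 4 genes was not tested.

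The gene with the lowest p of each cell type list did not pass with edgeR in either sex, apart from Ccr2. In females these were Flt3 for dendritic cells (log2 fold change 1.11, adjusted p = 0.146), Cd8a for lymphocytes (1.32, adjusted p = 0.121), Vwf for endothelium (0.55, adjusted p = 0.123) and Itgam for macrophages (0.87, adjusted p = 0.317). Vwf went against most of its list, as 2 of 7 endothelial markers were above 0 in females, with a median of -0.14. Epcam for bile ducts had 0.56 (adjusted p = 0.182), Csf3r for neutrophils 0.25 (adjusted p = 0.706), Cd163 for Kupffer cells -0.30 (adjusted p = 0.515) and Cps1 for hepatocytes -0.55 (adjusted p = 0.165). In males they were Csf1r for macrophages (0.38, adjusted p = 0.354), Timd4 for Kupffer cells (0.58, adjusted p = 0.324), Plac8 for monocytes (-0.20, adjusted p = 0.611) and Acta2 for stellate cells (-0.68, adjusted p = 0.386). Krt19 for bile ducts had -0.91 (adjusted p = 0.332), Apoa1 for hepatocytes -0.47 (adjusted p = 0.284) and S100a9 for neutrophils -0.89 (adjusted p = 0.309). Acta2 and Apoa1 do not stand for their lists in males. Of the stellate and the hepatocyte markers 4 of 8 each were above 0, with medians of 0.02 and 0.03. Clec9a, Cd3e and Cdh5, for dendritic cells, lymphocytes and endothelium, had 0.49, 1.12 and 0.17, with adjusted p-values of 0.385, 0.455 and 0.442. Of the lymphocyte markers 4 of 8 were above 0 in males, with a median of 0.03. In males the summed level of the general macrophage markers was 571 to 1049 CPM in control and 730 to 1128 CPM in LKO livers, and that of the stellate markers 94.0 to 310 and 120.0 to 326 CPM.

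Across males, Gpnmb was set against the summed level of 14 gene lists after the group means were removed. It went with stellate cell markers (r = 0.95, exact permutation p adjusted over 14 lists = 0.00122; rho = 0.90, adjusted p = 0.00259) and with the lysosomal genes (r = 0.95, exact permutation p adjusted = 0.00122; rho = 0.97, adjusted p = 0.00178). It went with partners and receptors at r = 0.89 and against hepatocyte markers at r = -0.89 (each with an exact permutation p of 0.0106 after adjustment). Spearman's coefficient was 0.87 and -0.89 for these lists, with exact permutation p-values of 0.0215 and 0.0198 after adjustment. Stellate sums ran from 94.0 CPM in control male 4 to 326 CPM in LKO male 3, the livers with the lowest and the highest Gpnmb. All sums are unweighted, so abundant genes lead them. In control males the collagens Col1a1 and Col3a1 ran from 7.44 to 79.4 and from 21.6 to 118 CPM. Reln and Lrat ran from 19.3 to 32.3 and from 10.8 to 17.9 CPM. The number of stellate cells cannot be read from the sum.

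General macrophage and Kupffer cell markers did not pass over 11 males. For the general macrophage markers r was 0.43 (exact permutation p adjusted = 0.355) and rho 0.57 (exact permutation p adjusted = 0.214), and Kupffer cell markers had r = 0.32 (exact permutation p adjusted = 0.490) and rho = 0.39 (exact permutation p adjusted = 0.354). Without the 2 livers farthest from the median of Gpnmb these were 0.94 and 0.91, so the low values over 11 males rested on those livers. Without the same 2 livers r was 0.90 for the stellate markers, 0.94 for the lysosomal genes, 0.74 for partners and receptors and -0.75 for the hepatocyte markers. Differences between these coefficients were not tested. Control male 4, with the lowest Gpnmb, had 1026 CPM of general macrophage markers, the third highest sum of the males. In females 0 of 14 lists passed by exact permutation with either coefficient, and stellate markers had the highest r, 0.74 (exact permutation p = 0.0193, adjusted 0.271; rho 0.74, exact permutation p = 0.0233, adjusted 0.326), which was 0.38 without the 2 extreme livers.

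**Figure D4:**
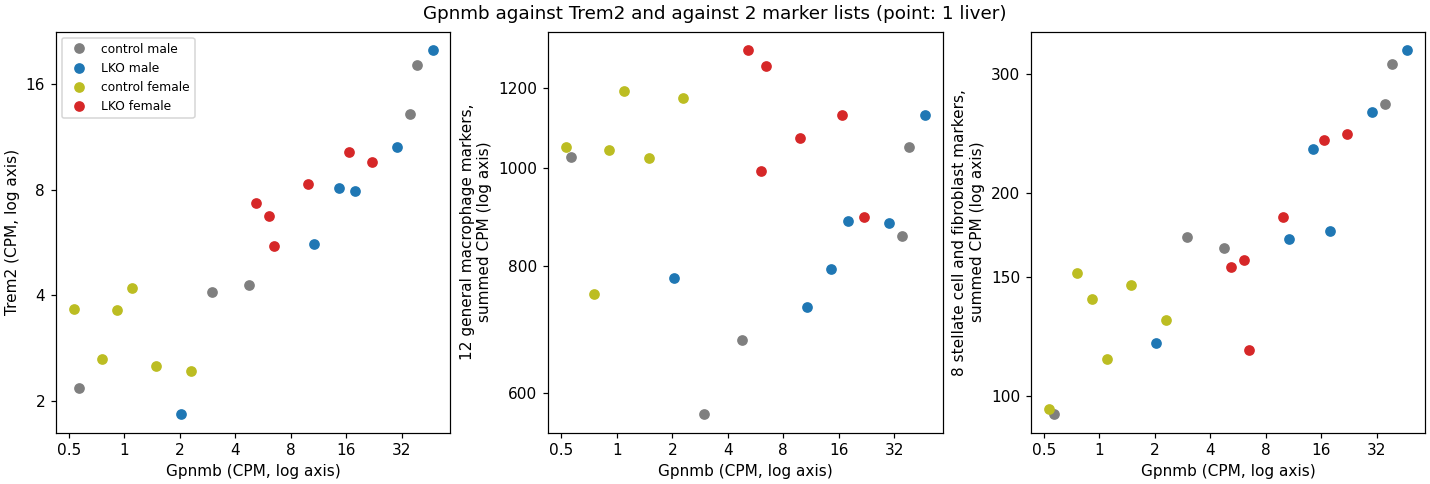
Gpnmb in CPM (horizontal log axis) against Trem2, the summed CPM of 12 general macrophage markers and the summed CPM of 8 stellate cell and fibroblast markers (vertical log axes), with 1 point per liver coloured by group. Male points follow Trem2 and the stellate sum closely, with r of 0.98 and 0.95 after removal of group means, and scatter against the macrophage sum, with r of 0.43. Without the 2 male livers farthest from the median of Gpnmb, r was 0.94 for the macrophage sum and 0.90 for the stellate sum.

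Outside the set, 12088 protein-coding genes were ranked by r with the mean of the 7 genes over the 23 livers after removal of group means. Sirpa, a myeloid receptor that binds CD47, was first with r = 0.96, which was 0.97 in males and 0.78 in females. Tagln2, an actin-binding protein, Nid1, a basement membrane protein, and Cd63 followed with 0.91 each, and their r was 0.96 to 0.97 in males and only 0.45, 0.42 and 0.40 in females. Adam8, a metalloprotease of leukocytes, Rragd, a GTPase of lysosomal nutrient signalling, Clip2 and Haus8, both of the microtubule system, had 0.90. For comparison, the members themselves had r of 0.82 for Cd9 to 0.95 for Spp1 with a mean that includes them, and in females from 0.23 for Trem2 to 0.78 for Cd9. All points share a library per liver, and the ranking is a description without a test.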

How the data were processed

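Raw read counts per gene were deposited by the authors in 1 table per sex, beside FPKM values, which were used only to compare levels between genes and in 1 alternative. HISAT2 2.0.5 and mm39 are named in the submitters' processing notes; the counter and annotation are not given in the sources used here. Libraries were poly-A selected and made with dUTP, per the labels' protocols. The 7 genes and the 14 lists were chosen with earlier results of these data known. Counts were fitted per sex with edgeR 4.0.16 (R 4.3.3; TMM, filterByExpr, quasi-likelihood test, Benjamini-Hochberg over all genes, called at 0.05), and tested on simulated data. The interaction and the sex contrast used genes of both tables. Named beside the 7 genes were the gene of lowest p in each list, the called programme genes and the 8 genes most like the set. Permutations were exact and two-sided, over 86400 rearrangements in males and 518400 in females. Total counts per liver limit precision for Gpnmb and Mmp12, with 7 or 8 counts in the lowest livers. Alternatives used DESeq2 1.42.0, limma 3.58.1, other scalings, filters and pseudocounts, a replicate block, and each liver left out. Of the sample columns, 0 were unmapped.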

Additional observations from a re-analysis of the deposited data

Results flagged for a closer look

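In 68 comparisons of the highest or lowest liver with the rest of its group, 7 stood apart by Dixon's criterion, and chance gives about 1 in 20. Itgax was 12.1 CPM in LKO female 6, where the next liver had 5.99 CPM. In the same liver the neutrophil markers summed to 21.4 CPM, with 10.5 CPM in the next, and control female 2 had 19.4 CPM against 8.92 CPM. Lymphocyte markers summed to 45.9 CPM in LKO female 5, with 17.8 CPM in the next liver, and to 22.1 CPM in LKO male 3, with 13.5 CPM in the next. LKO male 3, the liver with the most Gpnmb, also had the highest dendritic cell sum, 21.6 against 15.8 CPM. LKO male 1, the LKO male with the least Gpnmb, had the highest hepatocyte sum of its group, 80978 against 65500 CPM. The relation of these values to the levels of the 7 genes was not tested.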

How the results depend on the processing

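For the 7 genes in females the median log2 fold change was 0.67 when at least 10 counts were required in every sample, since Gpnmb and Mmp12 are removed by that filter. The median was 0.61 with limma on log2(FPKM + 1). DESeq2 called 559 of all genes and 6 of the programme genes in females, 114 and 1 in males, 97 of all genes for the interaction, and 2 of the 4 genes tested between control sexes. In males all genes called were 2 with library size alone, 2 without a filter and 3 with at least 10 counts. Between control sexes, 0 of the 4 genes were called with library size alone and 0 with limma. The labels tie replicate numbers to no litter or batch. Same-numbered deviations had r of -0.01 to 0.20 over 6 female pairs, over 0.1 in 5 of them, and of -0.39 to 0.42 over 5 male pairs, over 0.1 in 1, and 4 of 6 and 1 of 5 correlated best with their own number. As not every pair passed 0.1, the pairing was not used, though the female values give a hint of it. With the replicate block, edgeR called 334 genes in females, 2 in males, and 7 programme genes in females. The male median rho was 0.88. Leaving out 1 liver gave 87 to 233 called genes in females, 2 to 4 programme genes and medians over the 7 genes of 0.87 to 1.36. It gave 1 to 2 called genes and medians of -0.14 to 0.54 in males, 0 to 17 genes for the interaction, 1766 to 2947 genes and 0 to 2 of the 4 genes between control sexes. The median r was 0.26 to 0.33 in females and 0.90 to 0.94 in males. The cause of the other changes was not tested.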
